A study of Mus musculus with 10 samples.

Results

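The cytosolic ribosomal protein genes encode the protein subunits of the ribosome outside mitochondria. They were taken as every protein-coding gene with a symbol starting in *Rpl*, *Rps* or *Rplp* followed by a digit, plus *Rpsa*, without the *Rps6k* kinases. The rule matched 92 of the 46983 genes counted. Of these, 77 formed the core, with 46 genes of the large (60S) subunit and 31 of the small (40S) subunit. The other 15 were kept apart, namely the paralogs and related genes *Rpl3l*, *Rpl22l1*, *Rpl10l*, *Rpl39l*, *Rpl7l1*, *Rpl36al*, *Rps27l*, *Rps27rt* and *Rps19bp1*, and 6 genes with a pseudogene-style symbol that the annotation lists as protein-coding.

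The samples were mammary glands of virgin female C57BL/6 mice taken at post-natal day 130, as intact right thoracic fat pads. The control folic acid (CFA) group of 5 mice was fed 1 mg folic acid (FA) per kg of diet and the high folic acid (HFA) group of 5 mice was fed 5 mg FA per kg of diet. Both groups then received the same maintenance diet for 4 weeks before sampling, so the comparison addresses differences that remained after the period of high intake. The 5 libraries per group are those left after the study dropped an HFA library with poor reads and an outlying library. Whole fat pads hold adipocytes, epithelium, stroma, vessels and, in some pads, lymph node or muscle. In bulk tissue, fewer cells of a type and less RNA per cell cannot be told apart.

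Each ribosome holds a single copy of nearly every core protein, and the acidic stalk proteins P1 and P2 are the well-known exception. The mRNAs of ribosomal proteins usually begin with a short run of pyrimidines, the 5′ terminal oligopyrimidine (TOP) motif, through which mTOR signalling and LARP1 control their translation. Mammalian genomes also carry many processed pseudogenes of these genes, which are intron-less copies of the spliced mRNA.

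Depth ranged from 7672199 to 14829291 counts on genes per library, and a further 28.8% to 33.9% of the read pairs had more than 1 alignment and were not counted. Epithelial (*Krt8*, *Krt5*) and adipocyte (*Adipoq*) marker lists were detected with no marker at 0 in any library. HFA replicate 5 stood apart from the other 9 libraries. Its 8 B cell markers summed to 2729 CPM, that is counts scaled to library size, against 4.57 to 5.68 in the other 4 HFA libraries and 3.90 to 939 in the CFA libraries. Its 6 skeletal muscle markers summed to 658 CPM, against 38859 to 50960 in the other HFA libraries and 6194 to 38529 in the CFA libraries. The counts and medians of the core genes and of the other gene lists are therefore given with and without this library.

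The promoters of the core genes are shown first, because a TOP motif, where a gene has one, lies at the start site. RefSeq promoter windows (GRCm38.p6) were matched for 57 of the 77 core genes, giving 67 windows, and for 9 of the 15 genes kept apart, giving 11 windows. A run of at least 8 C or T bases lay within 10 bases of the start in 41.8% of the core windows, in 18.2% of those of the genes kept apart and in 13.7% of all 32851 windows. The letters CGGAAG, the core of sites bound by ETS-family factors, were found on either strand in 62.7% of the core windows and 16.9% of all windows. TATAAA, read on either strand, was in 8.96% of the core windows against 13.6% of all windows, and CACGTG was in 11.9% against 7.15%. Below are the 30 bases from 10 before to 20 after the start for genes named in the comparisons, with the pyrimidine run in capitals. *Rpl15* and *Rpl27a* had the smallest unadjusted p-values in the diet comparison, *Rpl35* and *Rpl38* were among the core genes with the lowest fold changes, *Rps6* is the target of S6 kinase, and *Rpl22l1* and *Rpl7l1* are paralogs.
Rpl15 (chr14:18270967-18270996, minus strand): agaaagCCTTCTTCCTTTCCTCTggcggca
Rpl27a (chr7:109519185-109519214, plus strand): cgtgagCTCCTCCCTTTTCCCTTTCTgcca
Rpl35 (chr2:39005112-39005141, minus strand): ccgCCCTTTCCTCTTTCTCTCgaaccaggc
Rpl38 (chr11:114668570-114668599, plus strand): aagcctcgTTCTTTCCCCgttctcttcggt
Rps6 (chr4:86857348-86857377, minus strand): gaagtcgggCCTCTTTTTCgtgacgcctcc
Rpl22l1 (chr3:28805498-28805527, plus strand): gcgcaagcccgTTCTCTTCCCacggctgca
Rpl7l1 (chr17:46782637-46782666, minus strand): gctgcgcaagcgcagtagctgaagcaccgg
The run covered 20 bases at *Rpl27a* and 17 at *Rpl15*, and no run of 8 was found at *Rpl7l1*. All core windows printed here hold a run, whereas 41.8% of all core windows do. *Rpl37a*, with a lower fold change than *Rpl35* and *Rpl38*, had no run of 8, nor had *Rplp0*, *Rpsa* or *Rpl22*. A run is a description of these letters and not evidence of a TOP mRNA.

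Many core genes had far fewer counts than their processed pseudogenes. Every core gene had at least 1 annotated pseudogene assigned to it by sequence, with a median of 13 and a maximum of 109 for *Rpl7a*. Of the 1375 assigned pseudogenes, 667 had a count and 153 passed the filter on low counts. The core genes held 865456 counts over the 10 libraries and their pseudogenes held 1421263. The top 50 pseudogenes held 85.7% of the pseudogene counts, and their identity to the parent mRNA had a median of 99.5%. A core gene held a median of 21.0% of the counts of its family, defined here as the gene plus its assigned pseudogenes. The share was under 5% for 19 genes and over 90% for 10.

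**Figure D1:**
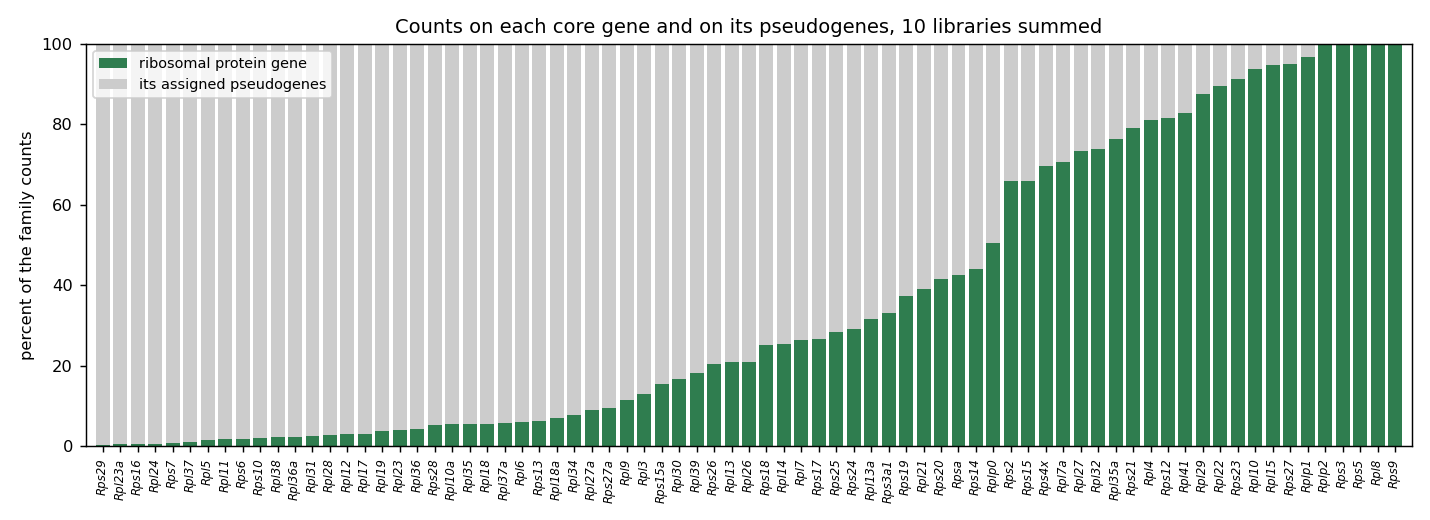
Each of the 75 bars is a core ribosomal protein gene and splits the counts of its family, summed over the 10 libraries, between the gene (green) and its assigned pseudogenes (grey), in percent. The gene's own share runs from 0.313% for *Rps29* to 100% for *Rps9*, with 51 of the 75 genes drawn under 50%.

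The genes for the small subunit proteins S6 and S16 and the large subunit protein L10a illustrate this at the level of the letters. Reads of the spliced mRNA that cross an exon junction match the pseudogene without a gap. Shown are 60 bases of coding sequence (GRCm38) centred on a junction, with the 10 bases around the junction in capitals. In each pair the parent mRNA and the pseudogene differed at 0 of these positions, so each sequence is printed once.
Rps6 exons 3 and 4 (chr4:86856146-86856175 and chr4:86855984-86856013, minus strand) and Rps6-ps4 (chr2:75191444-75191503, minus strand): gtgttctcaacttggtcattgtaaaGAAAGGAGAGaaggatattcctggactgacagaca
Rps16 exons 3 and 4 (chr7:28352244-28352273 and chr7:28352363-28352392, plus strand) and Rps16-ps2 (chr5:129128241-129128300, minus strand): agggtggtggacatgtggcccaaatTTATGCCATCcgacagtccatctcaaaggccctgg
Rpl10a exons 4 and 5 (chr17:28329493-28329522 and chr17:28330525-28330554, plus strand) and Rpl10a-ps1 (chr1:64994265-64994324, minus strand): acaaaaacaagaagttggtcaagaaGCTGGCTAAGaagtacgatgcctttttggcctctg
*Rps6* had 823 counts in all and *Rps6-ps4* had 43878. The ratio of the pseudogene to the parent was between 38.5 and 64.2 in every library. *Rps16* had 208 counts against 42297 on *Rps16-ps2*, and *Rpl10a* had 2403 against 42274 on *Rpl10a-ps1*. With up to complete identity between the copies, the counts do not show from which copy the RNA came. How much of the pseudogene signal came from the parent mRNAs was not tested.

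The families were therefore more alike in level than the genes. The ratio of the upper to the lower quartile of mean CPM was 21.7 across the 77 core genes and 3.21 across their families. The core share of the family counts barely moved between libraries, from 36.3% to 39.1%. The levels of genes such as *Rps29*, *Rps16* and *Rps6* are uncertain.

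The level of the core genes per kilobase of exon, as a mean over the 10 libraries, ran from 0.563 to 628 CPM per kb, with a median of 10.1. *Rplp1*, which encodes a stalk protein, was highest at 628 CPM per kb, followed by *Rpl8* at 407 and *Rpl4* at 321. *Rpl24* at 0.563, *Rpl23a* at 0.576 and *Rpl35* at 1.16 CPM per kb were lowest. Their own counts were 0.553%, 0.415% and 5.40% of their families, respectively, whereas *Rplp1* held 96.9% of its family. *Rpl23a* and *Rpl24* were the 2 core genes below the filter on low counts, with 0.111 to 0.878 CPM and 0.217 to 1.21 CPM across the libraries.

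The core genes were high or low together in a given library. As a share of all counts on genes, the core took 0.796%, 1.12%, 0.648%, 0.583% and 0.723% in CFA replicates 1 to 5. In HFA replicates 1 to 5 it took 0.501%, 0.467%, 0.508%, 0.451% and 1.35%. The first 4 HFA libraries were below all 5 CFA libraries, and HFA replicate 5 was above all of them. In HFA replicate 3, which had the fewest counts, the 95% Wilson interval of the share was 0.503% to 0.513%, which covers counting error only. The means were 0.774% ± 0.209 (SD, n = 5) in CFA and 0.656% ± 0.389 (SD, n = 5) in HFA, a difference smaller than either SD. Without HFA replicate 5, the HFA mean was 0.482% ± 0.0272 (SD, n = 4).

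After scaling by the trimmed mean of M-values (TMM), HFA replicates 1 to 4 were again below all CFA libraries and HFA replicate 5 above them, while the order within each group changed. The mean log2 CPM of the core genes that passed the filter was 4.49 to 5.11 in the CFA libraries, 4.15 to 4.29 in HFA replicates 1 to 4 and 5.51 in HFA replicate 5. HFA replicate 5 was the highest of the 10 libraries for 66 of the 75 core genes that passed the filter, against 31.8% of all genes tested. CFA replicate 2 was the highest for 7. The lowest library was an HFA library for 72 of the 75, and the share over all genes was not counted. Of the 77 core genes, 75 were above their own median in HFA replicate 5 and 75 in CFA replicate 2. In CFA replicates 1, 3 and 5 the number was 54 to 71. In CFA replicate 4 it was 13, within the 4 to 14 of HFA replicates 1 to 4. The shares of all genes above their own median in each library were not counted either.

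**Figure D2:**
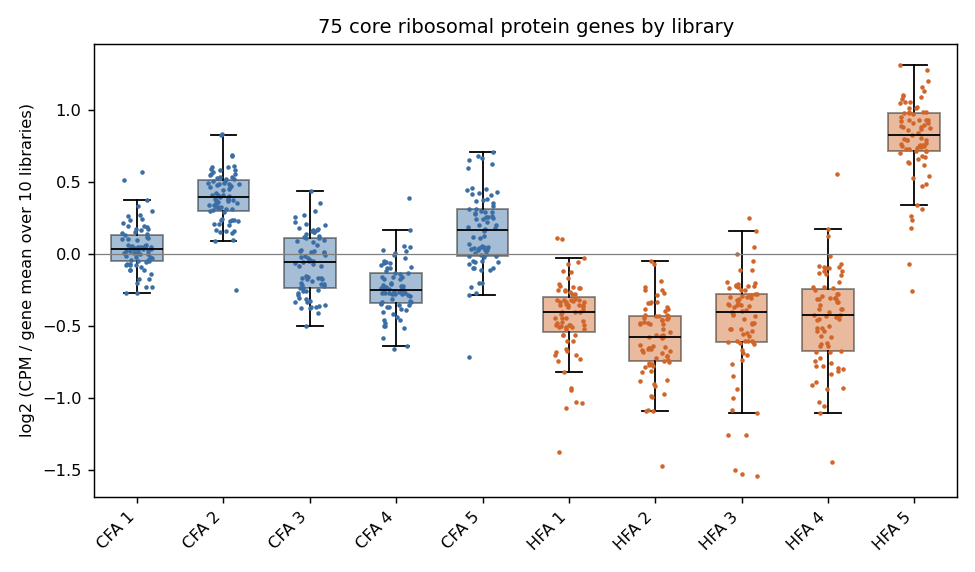
Each point is 1 of the 75 core genes that passed the filter, as log2 of its CPM over its mean in the 10 libraries (vertical axis) in each library. Boxes give the quartiles, in blue for CFA and orange for HFA, and the medians lie between -0.57 and -0.40 in HFA replicates 1 to 4, between -0.25 and 0.40 in CFA and at 0.83 in HFA replicate 5.

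The balance of the subunits varied less than the total. The summed CPM of the large subunit genes over that of the small subunit genes was 0.958 to 1.03 in the CFA libraries and 0.986 to 1.03 in HFA replicates 1 to 4. It was lowest, at 0.899, in HFA replicate 5. The most abundant genes, *Rps3*, *Rpl4*, *Rps9* and *Rpl8*, weigh most in these sums, and the counts on pseudogenes are not in them.

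The core share is plotted against lymphocyte and skeletal muscle markers. Not every marker list followed it. Luminal epithelium markers, for example, were highest in CFA replicate 2 (2249 CPM) and lowest in HFA replicate 5 (403 CPM). The B and T cell lists, with 8 genes each and none at 0 in any library, summed to 3718 CPM in HFA replicate 5, 1358 in CFA replicate 5 and 535 in CFA replicate 2. In the other 7 libraries they summed to 13.8 to 24.7 CPM. CFA replicate 1, with 24.7 CPM of these markers, had a higher core share of counts than CFA replicate 5, but after TMM scaling its summed core level was lower, at 7102 against 7398 CPM. The 6 skeletal muscle markers, again none at 0, were lowest in HFA replicate 5 and CFA replicate 2, the libraries with the highest core share. They were highest in HFA replicates 1 to 4 together with CFA replicate 5. The 5 proliferation markers summed to 56.9 to 216 CPM in CFA, 10.6 to 40.7 in HFA replicates 1 to 4 and 156 in HFA replicate 5. They were highest in CFA replicate 3, which had a core share of 0.648%. The part of cell composition in the core share was not tested.

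**Figure D3:**
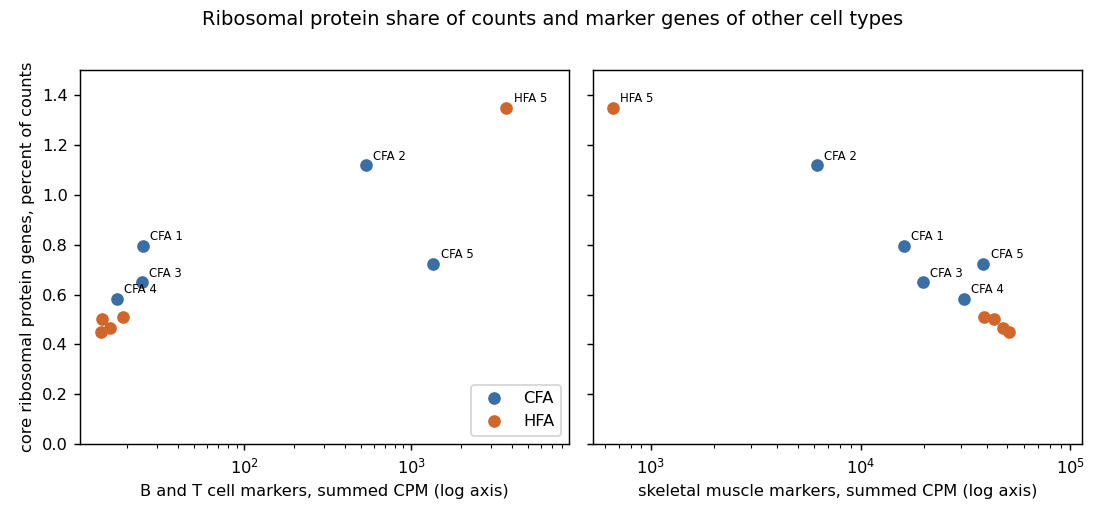
The core share of counts (percent, vertical axis) in each library is set against the summed CPM of the B and T cell markers (left) and of the skeletal muscle markers (right), both on log axes, with CFA in blue and HFA in orange. The unlabelled points are HFA replicates 1 to 4, all between 0.451% and 0.508%; HFA replicate 5 is at 1.35% with the most lymphocyte and the least muscle signal.

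In the comparison of HFA with CFA over all 10 libraries, no core gene passed the test. With edgeR's quasi-likelihood test and Benjamini-Hochberg adjustment over the 15610 genes tested, 0 of 75 core genes had an adjusted p below 0.05, against 0% of all genes in either direction. At an unadjusted p below 0.05, 2 core genes were lower in HFA and 0 were higher, with 3.49% of all genes lower and 3.87% higher at that level. Of the other tools, DESeq2 called 1 core gene, the likelihood ratio test and limma voom called 0 (with 0.128% of all genes called lower by the former), and limma voom with quality weights called 14, all lower in HFA, against 3.31% of all genes called lower. At an unadjusted p below 0.05, 47 core genes were lower with quality weights, against 14.2% of all genes, and 1 with the likelihood ratio test, against 3.75%. Adjusted p-values of the core genes in the quasi-likelihood test ran from 0.648 to 0.995. The fitted log2 fold change was below 0 in 70 of 75 core genes, against 40% of all genes. The median was -0.16 for the core and 0.06 for all genes tested. It was -0.21 over the 44 large subunit genes tested and -0.11 over the 31 small subunit genes. In 60 of the 75 genes the fold change was smaller in size than its standard error (SE), whose median was 0.30.

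*Rpl15*, which encodes the large subunit protein L15, was 1 of the 9 core genes in which HFA replicate 5 was not the highest library, and the only one in which it was the lowest. Its level was 48.1, 52.7, 57.3, 50.2 and 44.3 CPM in the CFA libraries and 38.6, 38.2, 38.3, 42.0 and 37.4 CPM in the HFA libraries. All 5 HFA libraries were below all 5 CFA libraries. It was the only core gene whose groups did not overlap, against 0.243% of all genes tested with HFA lower. In 0 core genes were all HFA libraries above all CFA libraries, against 0.75% of all genes. The log2 fold change was -0.38 ± 0.10 (SE) with an unadjusted p of 0.00324 and an adjusted p of 0.648 in edgeR's quasi-likelihood test. Leaving out each library in turn kept it between -0.44 and -0.37. With DESeq2 the adjusted p of *Rpl15* was 0.0354, where 0.186% of all genes were called lower. With limma voom and quality weights it was 0.0362, where 3.31% of all genes were called lower. The call of *Rpl15* thus depended on the test. *Rpl15* held 94.9% of the counts of its family.

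*Rpl27a*, for the large subunit protein L27a, was the other core gene with an unadjusted p below 0.05. Its CPM was 33.2, 42.7, 30.7, 28.6 and 27.2 in CFA and 22.0, 22.3, 19.6, 20.8 and 33.7 in HFA. HFA replicates 1 to 4 were below all CFA libraries, and HFA replicate 5 lay above 4 of the 5 CFA libraries. The log2 fold change was -0.45 ± 0.18 (SE), with an unadjusted p of 0.0327 and an adjusted p of 0.656 in edgeR's quasi-likelihood test. With limma voom and quality weights the adjusted p was 0.0359, where 3.31% of all genes were called lower. *Rpl27a* held 9.06% of its family, and its pseudogene *Gm7536*, identical to it over its whole length, had a log2 fold change of -0.02 with an adjusted p of 0.992.

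Among the 5 lowest log2 fold changes of the core were those of *Rpl17* (-0.56 ± 0.50, SE), *Rpl37a* (-0.55 ± 0.30), *Rpl35* (-0.51 ± 0.42) and *Rpl38* (-0.46 ± 0.36). *Rpl17* also had the largest SD of log2 CPM over the libraries, 0.81, before *Rps27a* at 0.74 and *Rps16* at 0.73. *Rpl37a* read 5.08, 4.17, 3.77, 3.61 and 4.55 CPM in CFA and 2.21, 2.16, 2.13, 2.29 and 5.54 CPM in HFA. The first 4 HFA libraries thus lay within a narrow band below CFA and the fifth lay above it. Among the 5 highest were *Rps12* (0.20 ± 0.21), *Rps29* (0.09 ± 0.40), *Rpl36* (0.04 ± 0.21) and *Rps2* (0.02 ± 0.16). Adjusted p-values of these genes were 0.699 or more in edgeR's quasi-likelihood test, and the groups overlapped in each. Limma voom with quality weights called *Rpl37a* (adjusted p of 0.0366) and *Rpl35* (0.041), both lower in HFA, where 3.31% of all genes were called lower.

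Core genes of the stalk or with roles outside the ribosome were also highest in HFA replicate 5. *Rplp0*, the scaffold of the stalk, had 277, 360, 278, 269 and 303 CPM in CFA and 246, 217, 242, 241 and 488 CPM in HFA. Its log2 fold change was -0.05 ± 0.23 (SE). *Rpsa*, which encodes a small subunit protein also known as the laminin receptor precursor, had 116 to 221 CPM in CFA, 93.7 to 120 in HFA replicates 1 to 4 and 304 in HFA replicate 5, with a log2 fold change of -0.09 ± 0.34. *Rpl5* and *Rpl11*, whose products bind MDM2 when free of the ribosome, were at 4.34 to 9.10 and 3.11 to 5.15 CPM in CFA. In HFA replicates 1 to 4 they were at 4.65 to 6.04 and 2.74 to 3.28 CPM, and in HFA replicate 5 at 12.0 and 7.89. *Rps6*, the phosphorylation target of S6 kinase, was at 5.13 to 7.79 CPM in CFA and 4.23 to 11.3 CPM in HFA, and the log2 fold change was -0.03 ± 0.27. The X-linked *Rps4x* ranged from 225 to 352 CPM in CFA and from 189 to 507 CPM in HFA.

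Without HFA replicate 5, the fold changes of all 75 core genes tested were below 0, against 55.1% of all genes. The core median was -0.59 and the median of all genes was -0.05. The large and small subunit medians were -0.58 and -0.59. At an unadjusted p below 0.05, 59 core genes were lower and 0 were higher, where 15% of all genes were lower. After adjustment over the 15735 genes tested, 1 core gene was called, against 0.0254% of all genes called lower. The HFA and CFA values did not overlap in 29 of the 75 core genes, against 4.74% of all genes. This library was left out after its values were seen, so these values describe the other 9 libraries and are not a second test of the diet.

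**Figure D4:**
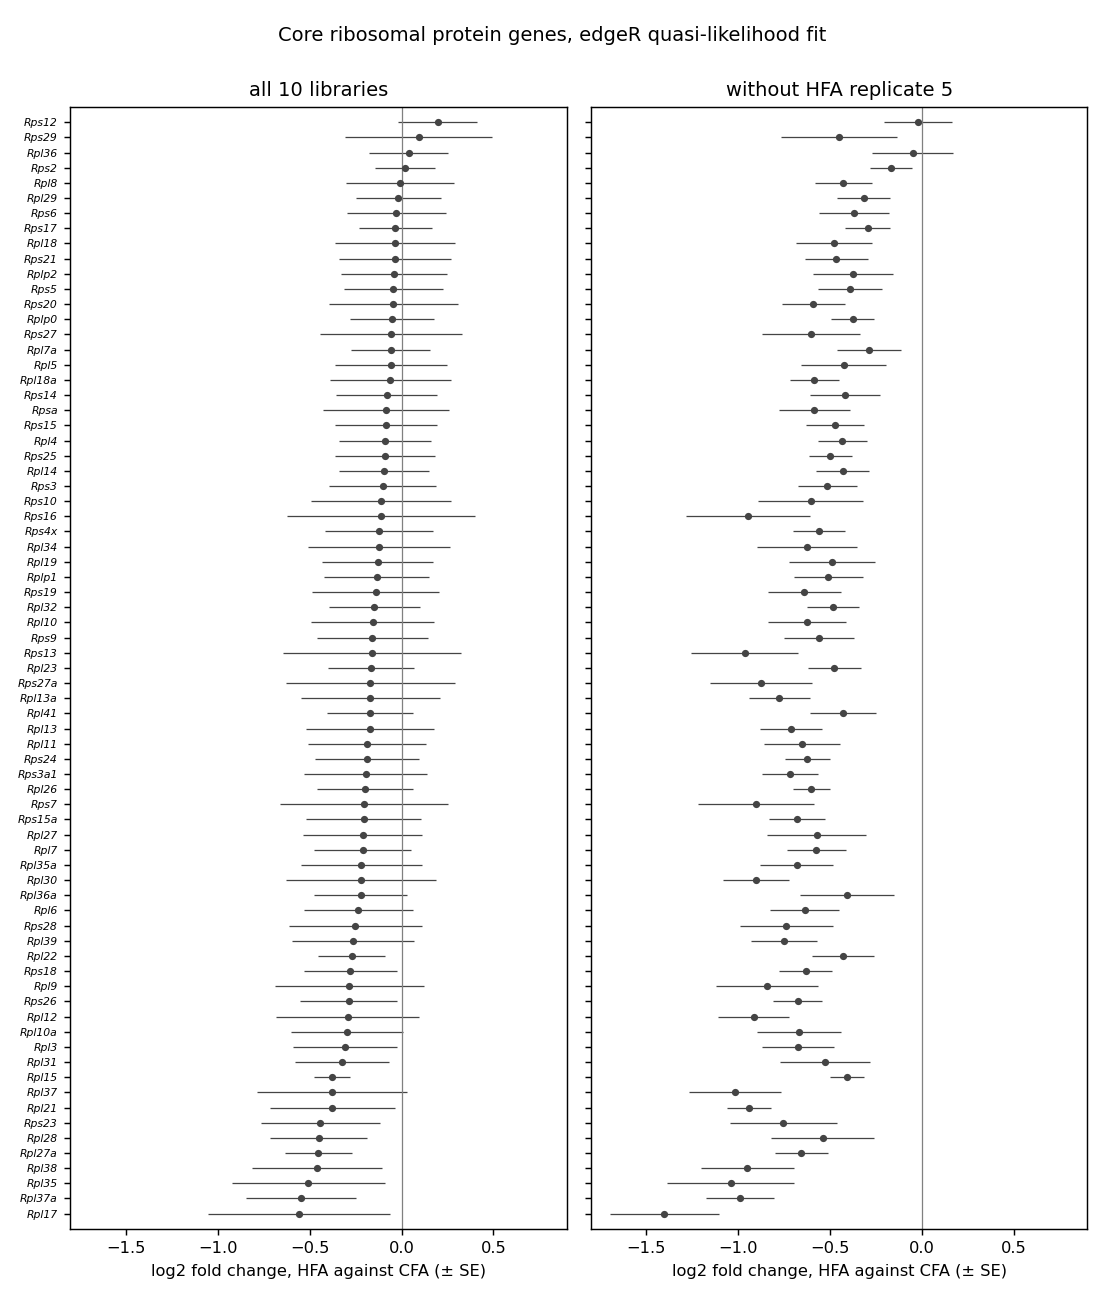
Log2 fold changes of HFA against CFA (horizontal axis, bars ± SE) for 73 of the 75 core genes tested, ordered by the value over all 10 libraries (left) and repeated without HFA replicate 5 (right). On the left 69 of 73 points are below 0 and most bars cross it, and on the right all 73 are below 0, with a median of -0.59.

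The core gene called without HFA replicate 5 was *Rpl21*, for the large subunit protein L21. It read 20.4, 25.2, 23.0, 19.7 and 23.4 CPM in CFA, and 11.2, 11.6, 12.9 and 12.3 CPM in HFA replicates 1 to 4. HFA replicate 5 was at 37.7 CPM, the highest of all. The log2 fold change was -0.94 ± 0.12 (SE) without HFA replicate 5, with an adjusted p of 0.0317 in edgeR's quasi-likelihood test, and -0.38 ± 0.34 with an adjusted p of 0.810 over all 10 libraries. *Rpl26* with an adjusted p of 0.0510 and *Rpl37a* with 0.0589 were next without that library. *Rps12* had the fold change nearest to 0, -0.02 ± 0.18. These genes were named after their values were seen.

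When all 3 libraries with the most B and T cell marker signal were left out (CFA replicates 2 and 5 and HFA replicate 5), 73 of 75 core genes had a fold change below 0, against 49% of all genes, and the median was -0.37. In this comparison of 3 CFA with 4 HFA libraries, 31 core genes had an unadjusted p below 0.05 with HFA lower, against 11.5% of all genes. With HFA lower, 4 core genes passed the adjusted threshold, among them *Rpl21*, *Rpl27a* and *Rpl26*, in edgeR's quasi-likelihood test, against 1.8% of all genes. With the B and T cell marker level as a covariate and all 10 libraries kept, the median was -0.13 and 62 of 75 fold changes were below 0, against 45.2% of all genes. In that fit 6 core genes were lower at an unadjusted p below 0.05, against 9.1% of all genes, and 0 passed the adjusted threshold, against 0.0128% of all genes called lower. In the 7 libraries with little lymphocyte signal the skeletal muscle markers summed to 16128 to 31055 CPM in CFA and 38859 to 50960 CPM in HFA.

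The second digit of the library titles, whose meaning the labels do not give, divided the libraries into sets whose core medians differed in sign. Among the libraries with digit 2 (CFA replicates 1 and 2, HFA replicates 1 to 3), all 75 core genes tested had a fold change below 0, against 48.5% of all genes, with a median of -0.68. Of these, 19 passed the adjusted threshold in edgeR's quasi-likelihood test, against 4.11% of all genes, and 54 were lower at an unadjusted p below 0.05, against 14.1%. Among those with digit 3 (CFA replicates 3 to 5, HFA replicates 4 and 5), 69 of 76 were above 0 and 7 below, against 47.8% of all genes below 0, with a median of 0.30, and 0 passed, against 0% of all genes. At an unadjusted p below 0.05, 0 core genes were called in the digit 3 set, where 0.513% of all genes were higher and 2.56% lower. HFA replicate 5 is 1 of the 2 HFA libraries of that set. The difference between the sets was not tested.

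Each family was also counted as a unit. With the pseudogene counts added to their parent, all 77 families passed the filter, 65 had a fold change below 0, against 39.8% of all units tested, and the median was -0.08. At the adjusted threshold 0 families were called with edgeR's quasi-likelihood test, against 0% of all units tested, and 1 was lower at an unadjusted p below 0.05, against 3.57% of all units. Without HFA replicate 5 all 77 families were below 0, against 55.2% of all units, with a median of -0.49. In that comparison 69 had an unadjusted p below 0.05, against 15% of all units lower, and 0 were called after adjustment, against 0.0193% of all units called lower. Of the pseudogenes by themselves, 153 were tested over all 10 libraries. Of these, 112 were below 0, against 40% of all genes, and 0 were called, against 0% of all genes. Without HFA replicate 5, 147 of 154 were below 0, against 55.1% of all genes. In that comparison 89 were lower at an unadjusted p below 0.05, against 15% of all genes.

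The paralogs kept apart did not all follow the core. *Rpl3l*, the striated muscle counterpart of *Rpl3*, read 75.1, 30.6, 73.3, 133 and 158 CPM in CFA and 186, 201, 164, 221 and 2.10 CPM in HFA. HFA replicate 5 was lowest and CFA replicate 2 next, which are also the libraries with the least skeletal muscle marker signal. Its log2 fold change was 0.72 ± 0.81 (SE), with an adjusted p of 0.852 in edgeR's quasi-likelihood test. Without the 3 libraries highest in lymphocyte markers *Rpl3l* was higher in the HFA group by 1.04 on the log2 scale, with an adjusted p of 0.0474, where 1.17% of all genes were called higher. *Rpl3* itself read 70.2, 75.6, 60.6, 48.1 and 44.8 CPM in CFA and 45.1, 36.7, 43.8, 29.2 and 86.6 CPM in HFA, the reverse order at both ends, with a log2 fold change of -0.31 ± 0.28.

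*Rpl22l1*, the paralog whose protein can replace L22, was also highest in HFA replicate 5. It read 7.97, 10.2, 6.43, 5.64 and 7.31 CPM in CFA and 3.10, 4.49, 3.12, 8.23 and 16.2 CPM in HFA, and the log2 fold change was -0.08 ± 0.45 (SE) over all 10 libraries. It was -0.70 ± 0.31 without HFA replicate 5, with an adjusted p of 0.190 in edgeR's quasi-likelihood test. The study, whose model included cage, lists *Rpl22l1* among its top downregulated genes, whereas the fit here over all 10 libraries, without cage, did not call it. *Rpl22* was at 202, 258, 170, 160 and 146 CPM in CFA and 138, 135, 141, 160 and 202 CPM in HFA, and the log2 fold change was -0.27 ± 0.18. *Rpl22* was highest in CFA replicate 2, and both genes had overlapping groups. *Rpl39l* was low throughout, at 0.332 to 4.31 CPM with a log2 fold change of 0.52 ± 0.59, against 17.3 to 59.2 CPM for *Rpl39*.

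*Rps27rt*, a single-exon coding copy related to *Rps27*, had 144 to 289 CPM in CFA, 116 to 162 in HFA replicates 1 to 4 and 612 in HFA replicate 5, with a log2 fold change of 0.17 ± 0.47 (SE). *Rps27* had only 1.11 to 4.71 CPM in any library. The 2 genes were kept as annotated, and because *Rps27rt* is annotated as protein-coding it is not in the pseudogene sums. The same holds for *Rpl9-ps6* (66.6 to 213 CPM, log2 fold change -0.10 ± 0.29), *Rpl36a-ps1* (7.38 to 30.3 CPM, -0.20 ± 0.41), *Rps12-ps3* (8.54 to 20.9 CPM, 0.04 ± 0.26) and *Rpl10-ps3* (2.47 to 6.36 CPM, -0.21 ± 0.31). The first 3 of these were highest in HFA replicate 5, and *Rpl10-ps3* was highest in CFA replicate 2.

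*Rps27l*, a p53-responsive paralog of *Rps27*, was at 51.7 to 57.7 CPM in CFA and 45.1 to 72.2 CPM in HFA, and the log2 fold change was 0.00 ± 0.13 (SE). *Rpl36al* was at 35.0 to 58.9 CPM with -0.04 ± 0.17, *Rps19bp1*, whose product is a binding partner of S19, at 9.14 to 13.8 CPM with -0.12 ± 0.16, and *Rpl7l1*, involved in ribosome assembly, at 48.4 to 72.3 CPM with -0.18 ± 0.13. *Rpl10l*, the testis counterpart of *Rpl10*, *Rpl9-ps1* and *Rpl36-ps4* had 0 counts in all 10 libraries. Of the 12 genes kept apart that passed the filter, 5 had a fold change above 0 and 7 below over all 10 libraries, and 0 passed the test, adjusted or at an unadjusted p below 0.05. Without HFA replicate 5, 2 were above 0 and 10 below, with a median of -0.32. In that comparison 5 were lower at an unadjusted p below 0.05, against 15% of all genes, and 1, *Rpl3l*, was higher, against 10.8%, while 0 passed the adjusted threshold. Among the libraries with title digit 2, *Rpl22l1* (-1.30 ± 0.28), *Rps27rt*, *Rpl36a-ps1* and *Rpl9-ps6* passed the adjusted threshold with HFA lower, against 4.11% of all genes, and *Rpl3l* passed it with HFA higher, against 5.01%. With limma voom and quality weights 1 of the 12, *Rpl36a-ps1*, was called, lower in HFA, against 3.31% of all genes.

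**Figure D5:**
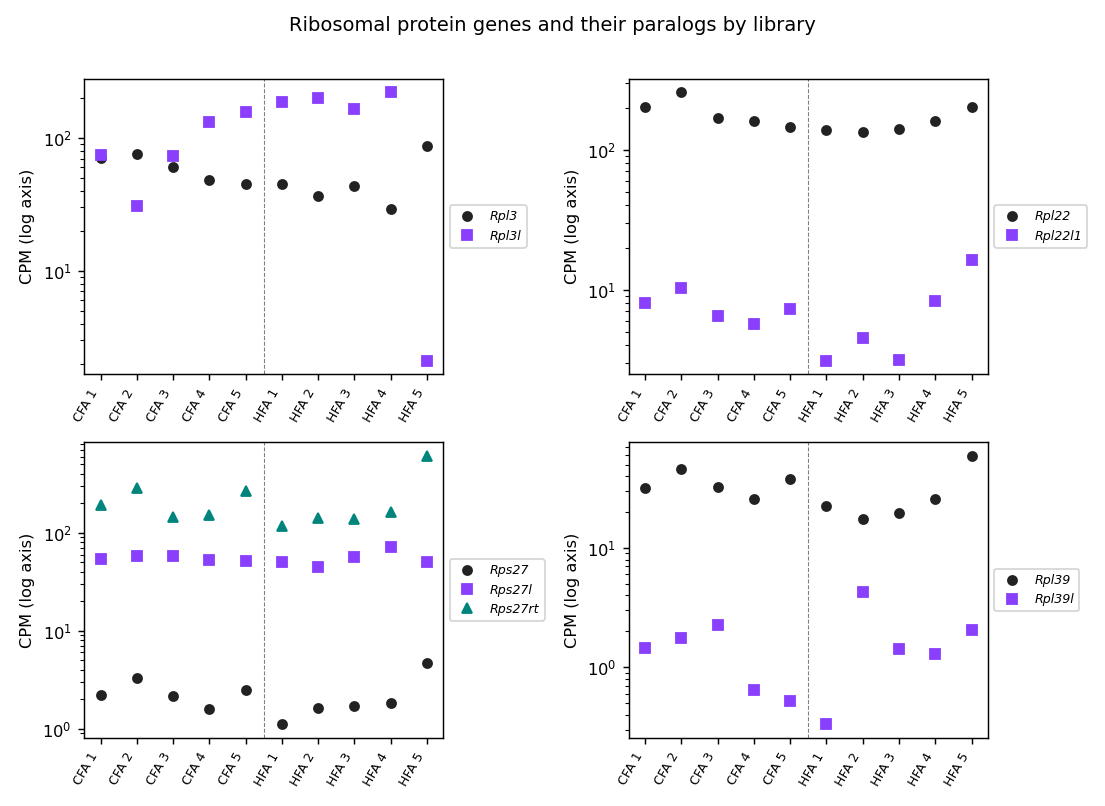
CPM (log axis) in each library of *Rpl3*, *Rpl22*, *Rps27* and *Rpl39* with their paralogs, CFA left and HFA right of the dashed line. *Rpl3l* drops to 2.10 CPM in HFA replicate 5, whereas *Rpl3* and *Rps27rt* peak there at 86.6 and 612 CPM.

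Genes that work with the ribosomal proteins were read from lists. *Rack1*, a scaffold bound to the small subunit, read 660 to 1017 CPM in CFA, 528 to 606 in HFA replicates 1 to 4 and 1246 in HFA replicate 5. *Fau*, which encodes a ribosomal protein fused to a ubiquitin-like protein, was at 0.604 to 3.37 CPM. *Eef1a1*, for the elongation factor that delivers aminoacyl-tRNA, read 1465 to 2171 CPM in CFA, 1197 to 1477 in HFA replicates 1 to 4 and 2770 in HFA replicate 5. *Eef2*, the translocation factor, spanned only 1686 to 2355 CPM. *Tpt1*, another TOP gene, spanned 11.5 to 36.9 CPM. The study lists it among its top downregulated genes, whereas the fit here over all 10 libraries, without cage, did not call it. Pseudogene counts and reads with several alignments are not in these values, so levels such as those of *Fau* and *Tpt1* are uncertain. Over all 10 libraries, where 40% of all genes had a fold change below 0 and their median was 0.06, the 16 elongation factors and other TOP genes had 6 above 0 and 10 below with a median of -0.05. The 23 initiation factors had 15 and 8 with 0.02, and the 36 genes of RNA polymerase I and rRNA processing 19 and 17 with 0.02. The 29 ribosome assembly genes tested had 13 above 0 and 16 below with a median of -0.02, and the 19 regulators of ribosomal protein synthesis had 17 and 2 with 0.18.

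Several of these lists moved when HFA replicate 5 was left out, where 55.1% of all genes were below 0 with a median of -0.05. The genes of RNA polymerase I and rRNA processing then had 31 of 36 below 0 with a median of -0.23, and 11 of them were lower at an unadjusted p below 0.05, against 15% of all genes. The elongation factors and other TOP genes had 13 of 16 below 0 with a median of -0.22, 8 of them at an unadjusted p below 0.05. The ribosome assembly genes had 24 of 29 below 0 with a median of -0.14, again 8 at that level. The initiation factors had 13 of 23 below 0 with a median of -0.02, and the regulators had 6 of 19 below 0 with 0.11. At an unadjusted p below 0.05, 2 initiation factors were higher and 2 lower, and 7 regulators were higher and 3 lower. Of all genes, 10.8% were higher and 15% lower at that level. In that fit 0 genes of these lists passed the adjusted threshold.

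The mitochondrial ribosomal proteins, which belong to a separate ribosome, had most fold changes above 0. Of 77 tested, 67 were above 0 and 10 below, with a median of 0.14, against 40% of all genes below 0 and a median of 0.06. In all these lists 0 genes passed the adjusted threshold over all 10 libraries in edgeR's quasi-likelihood test. At an unadjusted p below 0.05, where 3.87% of all genes were higher and 3.49% lower, 2 of the 77 mitochondrial ribosomal protein genes were higher in HFA (*Mrpl4*, *Mrps23*), as were 2 of the 29 assembly genes (*Sbds*, *Las1l*) and 3 of the 19 regulators (*Eif4ebp2*, *Maf1*, *Tsc1*), while *Myc*, which encodes an activator of ribosome synthesis, was lower with a log2 fold change of -0.73 ± 0.30 (SE) and an adjusted p of 0.656. Without HFA replicate 5 the mitochondrial list kept 62 above 0 and 15 below with a median of 0.13, beside -0.59 for the cytosolic core and -0.05 for all genes.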

How the data were processed

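Total RNA of each fat pad was made into a library with the Illumina TruSeq RNA v2 kit and sequenced as paired reads. The authors aligned reads with TopHat 2.0.14 and Bowtie 2.2.5 to GRCm38 (mm10) and deposited raw read counts per Ensembl gene from HTSeq 0.6.1, which leaves out reads with more than 1 alignment. Whether counting used strand is not given in the sources used here. The 5 summary lines of each file were kept out of library sizes. Symbols, exons and sequences came from GENCODE for 46488 of 46983 genes, without conversion of coordinates. Pseudogenes were assigned to the core gene of the best blastn 2.17.0 hit (identity at least 80%, coverage at least 50%, E-value at most 1e-10).

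Genes passing filterByExpr were fitted with edgeR 4.0.16 (TMM, quasi-likelihood, two-sided, Benjamini-Hochberg, threshold 0.05) in R 4.3.3 over all 10 libraries, 1 per mouse, with the diet group as the only term. The cage used in the study's own model is not in the labels, so the study's calls and those here come from different models. CPM are TMM-scaled. Alternatives were RLE and upper-quartile scaling, other filters, the likelihood ratio test, DESeq2 1.42.0, limma 3.58.1 voom with and without quality weights, covariates, a replicate block and omitted libraries. The procedure was also run on simulated data. These had independent genes, large fold changes and no library like HFA replicate 5, so they do not measure how it performs here. Members and lists were chosen with earlier results of these data known. Named genes were the genes kept apart, a fixed list of core genes, core genes with an unadjusted p below 0.05, the 5 highest and 5 lowest fold changes, the 3 highest and lowest levels per kb, those under the filter, related translation genes and the 3 with the largest SD. Additions made after seeing the data were family sums and the omission of the 3 lymphocyte-rich libraries. Values of some genes that met this rule are not reported here.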

Additional observations from a re-analysis of the deposited data

Results flagged for a closer look

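Within each group of 5, the gap between an extreme library and its nearest neighbour, as a part of the group's range, was compared with Dixon's critical value of 0.71, over 64 groups of values. It was passed by 19, where chance gives about 1 in 20 groups. Because genes that move together give flags together, these are not independent.

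HFA replicate 5 was the highest HFA library for the core share of counts (0.937), the core mean log2 CPM (0.892) and the pseudogene share of counts (0.948). It was the highest for *Rpl17* (0.909), *Rpl27a* (0.805), *Rpl3* (0.723), *Rpl36a-ps1* (0.939), *Rpl37a* (0.954), *Rpl38* (0.936), *Rpl7l1* (0.725), *Rplp0* (0.892), *Rps12-ps3* (0.847), *Rps27rt* (0.908), *Rps29* (0.804), *Rps6* (0.717) and *Rpsa* (0.876), and the lowest for *Rpl3l* (0.74). In this library the B and T cell markers summed to 3718 CPM and the skeletal muscle markers to 658 CPM, and their part in these values was not tested.

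For *Rpl15*, HFA replicate 4 was the highest HFA library (0.733), at 42.0 CPM against 37.4 to 38.6 CPM in the other 4. For *Rps12*, CFA replicate 2 was the highest CFA library (0.766), at 8.01 CPM against 5.01 to 5.71 CPM in the other 4.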

How the results depend on the processing

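Over all 10 libraries, the core median log2 fold change kept its sign under every scaling, filter, tool and covariate run, from -0.45 with limma voom and quality weights to -0.08 as family sums. It was -0.68 among the libraries with title digit 2 and 0.30 among those with title digit 3. Leaving out each library in turn gave medians of -0.59, without HFA replicate 5, to -0.05, without HFA replicate 2. The number of core genes called was 0 under RLE and upper-quartile scaling, TMM without these genes, both other filters, the likelihood ratio test, limma voom, the title digit as a term, the marker covariate, the block and among digit 3, and as family sums. It was 1 with DESeq2, 14 with limma voom and quality weights, 19 within digit 2 and 4 without the 3 lymphocyte-rich libraries, and 0 to 1 when each library was left out in turn. At an unadjusted p below 0.05 the count was 1 with the likelihood ratio test (3.75% of all genes lower), 47 with quality weights (14.2%), 6 with the marker covariate (9.1%), 54 within digit 2 (14.1%), 0 within digit 3 (2.56%), 31 without the 3 lymphocyte-rich libraries (11.5%), 1 as family sums (3.57%) and 69 as family sums without HFA replicate 5 (15%). It ran from 1 to 59 when each library was left out. The HFA minus CFA difference in the core share of counts, -0.118 percentage points, was -0.292 without HFA replicate 5 and -0.0320 without CFA replicate 2, and its sign held with the other denominators and members.

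The title digits after the first gave 4 pairs of libraries across diets, with correlations of their deviations of 0.298, -0.294, 0.111 and 0.410. Whether the digits pair the samples cannot be told from these values, because the labels do not give their meaning. Under the replicate block built from the title digits, 0 core genes were called, 1 had an unadjusted p below 0.05, and the core median was -0.31.

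For 27 of the genes with a log2 fold change in the text, 623 of 719 values under the alternatives kept their sign and the rest are listed below. *Rpl21*, *Gm7536* and *Myc* were not among these 27. Among the libraries with title digit 3, the sign turned for *Rpl10-ps3* (0.31), *Rpl17* (0.016), *Rpl22* (0.10), *Rpl22l1* (0.83), *Rpl3* (0.084), *Rpl35* (0.050), *Rpl36a-ps1* (0.54), *Rpl36al* (0.17), *Rpl3l* (-0.19), *Rpl9-ps6* (0.41), *Rplp0* (0.27), *Rps19bp1* (0.10), *Rps6* (0.39) and *Rpsa* (0.45). With upper-quartile scaling, the sign turned for *Rpl36* (-0.029), *Rps12-ps3* (-0.037), *Rps2* (-0.052) and *Rps27l* (-0.064). With no filter, the sign turned for *Rpl36* (-0.032), *Rps12-ps3* (-0.040), *Rps2* (-0.055), *Rps27l* (-0.068) and *Rps29* (-0.010). With limma voom and quality weights, the sign turned for *Rpl36* (-0.11), *Rpl39l* (-0.39), *Rps12-ps3* (-0.10), *Rps2* (-0.15), *Rps27l* (-0.069), *Rps27rt* (-0.49) and *Rps29* (-0.33). Among the libraries with title digit 2, the sign turned for *Rpl36* (-0.38), *Rps12* (-0.070), *Rps12-ps3* (-0.37), *Rps2* (-0.29), *Rps27l* (-0.12), *Rps27rt* (-0.82) and *Rps29* (-0.66). As family sums without HFA replicate 5, the sign turned for *Rpl36* (-0.25), *Rps12* (-0.22), *Rps2* (-0.088), *Rps27l* (-0.022) and *Rps29* (-0.45). With the lymphocyte marker covariate, the sign turned for *Rpl36al* (0.016), *Rpl3l* (-0.053) and *Rps27l* (-0.014). With limma voom, the sign turned for *Rps27l* (-0.018) and *Rps27rt* (-0.17). Without the 3 lymphocyte-rich libraries, the sign turned for *Rps12-ps3* (-0.089), *Rps2* (-0.046), *Rps27rt* (-0.21) and *Rps29* (-0.35). With TMM factors computed without these genes, the sign turned for *Rps27l* (-0.0013). Under the replicate block, the sign turned for *Rps27l* (-0.00038) and *Rps27rt* (-0.034). As family sums, the sign turned for *Rps27l* (-0.0012). Leaving out each library in turn turned the sign, within the ranges given, for *Rpl22l1* (-0.70 to 0.10), *Rpl36* (-0.13 to 0.11), *Rpl36al* (-0.24 to 0.018), *Rpl39l* (-0.043 to 0.78), *Rpl9-ps6* (-0.52 to 0.036), *Rplp0* (-0.37 to 0.032), *Rps12* (-0.022 to 0.28), *Rps12-ps3* (-0.30 to 0.14), *Rps2* (-0.17 to 0.083), *Rps27l* (-0.12 to 0.064), *Rps27rt* (-0.62 to 0.34), *Rps29* (-0.45 to 0.23), *Rps6* (-0.37 to 0.093) and *Rpsa* (-0.58 to 0.038). The cause of these changes was not tested. In edgeR's quasi-likelihood test 0 of the genes listed were called over all 10 libraries, whereas limma voom with quality weights called *Rpl35* (adjusted p of 0.0413) and *Rpl36a-ps1* (0.0437), both lower in HFA. Of the 27 genes, limma voom with quality weights also called *Rpl15* (0.0362), *Rpl27a* (0.0359) and *Rpl37a* (0.0366), all lower in HFA.

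With 5 mice per group, the median SE of a core gene was 0.30 on the log2 scale, which is larger than the core median itself. *Rpl23a* and *Rpl24* had too few counts to be tested. Where a core gene holds a small part of its family, its level is uncertain. A large part does not make the level certain, because reads with more than 1 alignment were not counted. *Rplp2* held 99.9% of its family at 5.91 CPM per kb, against 628 CPM per kb for *Rplp1*. Cage was not available as a term.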
